A study of Homo sapiens with 4 samples.

Results

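The transcripts recovered from SiHa cells with an antibody against YTHDF3 were compared, gene by gene, with the input RNA of the same cells. All 3648 genes of the authors' deposited table for SiHa were taken, out of 3905 genes listed for SiHa or for its YTHDF3 knockout. The ratio used throughout is the level in the immunoprecipitate (IP) divided by the level in the input, on a log2 scale where so named. SiHa is an established human line of cervical squamous carcinoma. The study held 4 libraries, namely the IP and the input of SiHa cells without the knockout and the IP and the input of SiHa cells labelled as YTHDF3 knockout. Each group was 1 library, so no value below has a replicate error, and none was tested. A control precipitation with an unrelated antibody was not analysed here.

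YTHDF3 is a cytoplasmic protein that reads N6-methyladenosine, the most common internal modification of messenger RNA. Its YTH domain holds the methylated base. In work on other human cells the protein has been linked to translation and to decay of its bound messages, together with its paralogs YTHDF1 and YTHDF2. RNA immunoprecipitation recovers whole transcripts and does not show where on a transcript a protein sits. A ratio of IP over input therefore ranks genes and gives no binding site.

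The deposited levels carried no stated unit, and whether they were scaled to transcript length is not known. The sequencing depth is unknown for the same reason. High and low input level below refer to the deposited values, which may mix abundance with transcript length. The IP column was recognised because its name lacks the word input, while the lane that it names is not part of the title of that sample, which leaves every IP level in some doubt. Each listed gene had been called up by the authors, at a log2 fold change of at least 1.0 and a p-value of at most 0.05 in the authors' deposited table. The deposited log2 fold change exceeded log2 of the ratio by a constant 1.01 in every row, so that a ratio near 1 was already enough for listing. The list made up 27.0% of the 13529 genes tested, a number worked out from the adjusted and unadjusted p-values. Low ratios below are thus the low end of a list of enriched genes, and no gene outside the list is described.

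Of 14 epithelial markers, KRT8, KRT17, KRT18, EPCAM, CDH1 and SFN were listed, at log2 ratios of 0.31 to 1.08. KRT17, a keratin of basal and squamous epithelium, had 668 in the IP and 369 in the input. Of the fibroblast, endothelial and leukocyte markers 0 of 6, 0 of 4 and 0 of 5 were listed, and of 4 neuronal markers only MAP2, with a level of 6.13 in the IP and 2.71 in the input. A marker that is not listed did not pass the thresholds or was not tested, and its level is not known.

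Over all listed genes the log2 ratio had a median of 1.04, or 2.05-fold. Its quartiles were 0.62 and 1.50, and it spanned -0.01 to 3.68, the highest being 12.8-fold. The median IP level was 21.2 and the median input level 10.7. Only 3 genes, TCF19, RHOF and CD55, had an IP level below the input level, and in 140 genes the levels lay within 10% of each other. The listing limit, a deposited log2 fold change of at least 1.0, left out genes with lower ratios, so the count of 3 reflects that limit. A ratio of at least 4 was reached by 312 genes, or 8.55%, by 205 with a pseudocount of 1 and by 149 among genes with an input level of at least 10. With the deposited log2 fold change, which adds a constant of 1.01 to every log2 ratio, it was 1917. The highest decile of the ratio held 365 genes with log2 ratios of 1.94 and above, and the lowest decile 365 genes at 0.33 and below. The transcript of YTHDF3 itself had an IP level of 25.8, an input level of 11.7 and a log2 ratio of 1.13, close to the median of the list.

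The 10 leading genes, among those whose higher level was at or above the median, came from different families. USB1 encodes the exonuclease that trims the end of U6 small nuclear RNA, and led with an IP level of 88.0 against an input level of 6.88, a ratio of 12.8 (chr16:57999603-58021618, RefSeq, GRCh38.p14). SIX2 is a homeobox factor of kidney progenitors, and its IP level was 26.5 against 2.94 in the input, a ratio of 9.03. Input levels of both lay below the median of all listed genes, and their IP levels stood above it.

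LEO1 and HTATSF1 encode factors of transcription elongation, and SLU7 a factor of the second step of splicing. LEO1 had an IP level of 69.0 against an input level of 8.72, a ratio of 7.91. HTATSF1 followed at 73.7 in the IP and 9.70 in the input, a ratio of 7.60, and SLU7 at 67.9 in the IP and 9.63 in the input, a ratio of 7.05. These nuclear-factor genes resembled each other in both levels. HMMR, a hyaluronan receptor that also binds spindle microtubules, had 114 in the IP and 15.5 in the input, a ratio of 7.40. HSP90B1, the HSP90 of the endoplasmic reticulum, stood apart from the others by its level: 2310 in the IP and 294 in the input, a ratio of 7.86 (chr12:103930410-103947926). It had the highest IP level of all listed genes and came sixth by ratio among these 10. The remaining leaders were MIR1244-2 and the pseudogenes HSP90AA2P and NPM1P27, which are described with their families.

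The 10 genes at the other end had nearly equal levels in both libraries, which is where the listing limit cut the list. RHOF, which encodes a small GTPase, had 24.3 in the IP and 24.4 in the input. CD55, a membrane protein that restrains complement, had 39.0 in the IP and 39.1 in the input. SLC39A9 is a zinc transporter of the secretory pathway, with 30.4 in the IP and 30.3 in the input. In each of these genes the levels of both libraries differed by less than 1%. CLPTM1L, NIPA2, NCOA4, PTGFRN, SPINT1, EIF3I and CDC25B followed, with log2 ratios from 0.00 to 0.01. Of these, NIPA2 encodes a magnesium transporter, PTGFRN and SPINT1 encode surface glycoproteins, NCOA4 the receptor for ferritin in autophagy, and CDC25B a phosphatase that activates cyclin-dependent kinases.

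**Figure D1:**
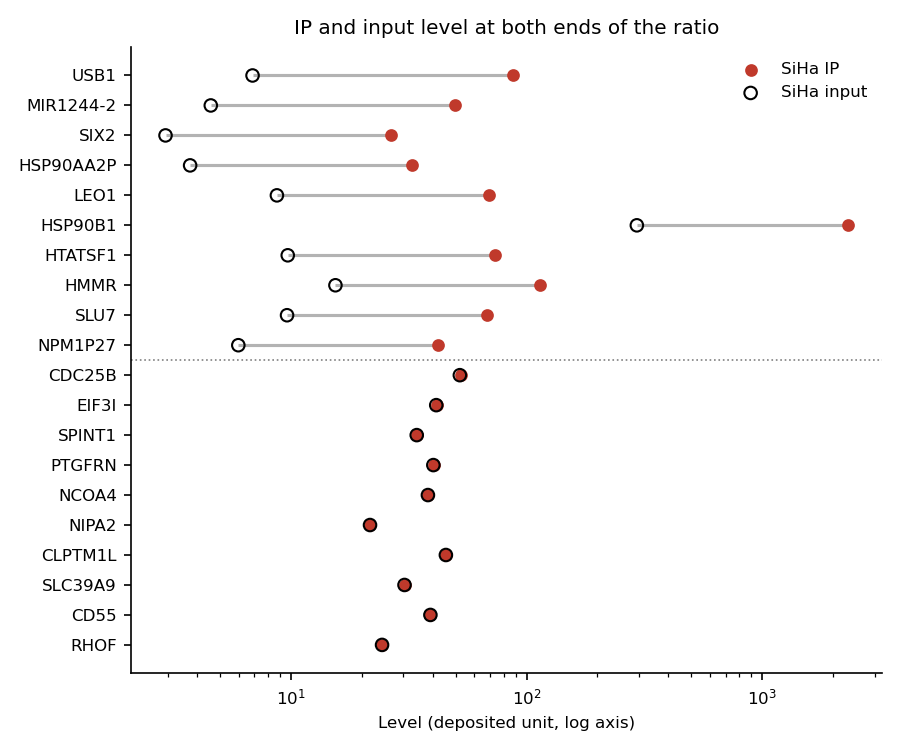
IP level (filled) and input level (open) of the 10 highest and the 10 lowest ratios among genes whose higher level was at or above the median, on a log axis in the deposited unit, 1 library per point. The upper 10 are separated by 7.03-fold to 12.8-fold, and in the lower 10 the points coincide.

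Chaperone genes of the HSP90 family stood together at the high end. All 4 listed HSP90 genes were in the highest decile of the ratio, which holds 10% of listed genes by construction. Of the 4, HSP90AA2P is a processed pseudogene whose level is uncertain. It was kept in this class, whereas the other classes by symbol left pseudogenes out. HSP90AA1 and HSP90AB1 encode the inducible and the constitutive cytosolic HSP90, chaperones of kinases and steroid receptors. HSP90AA1 had a level of 1838 in the IP and 269 in the input, a log2 ratio of 2.77. HSP90AB1 had 936 in the IP and 174 in the input, a log2 ratio of 2.43. Both, like HSP90B1, were also in the highest decile of input level, a place shared by only 39 of the 365 genes with the highest ratios.

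The HSP70 and HSP110 genes, whose products bind unfolded stretches of protein, had a median log2 ratio of 1.33, with 2 of 8 in the highest decile. HSPA8, the constitutive cytosolic HSP70, had an IP level of 1667 against an input level of 421, a log2 ratio of 1.98. HSPA5 (BiP), the HSP70 of the endoplasmic reticulum, had 577 in the IP and 128 in the input, a log2 ratio of 2.17. The stress-inducible HSPA1A was lowest of the family at 68.6 in the IP and 30.5 in the input, a log2 ratio of 1.17. The members thus differed among themselves by about 1 log2 unit, all above the median of the list.

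Chaperones and folding enzymes of the endoplasmic reticulum, a class added after values were seen, had 11 listed members and a median log2 ratio of 1.62. Of these, 9 were in the highest decile of input level. Besides HSP90B1 and HSPA5, the disulfide isomerase gene PDIA5 was highest, at 38.6 in the IP and 10.3 in the input (log2 1.91). P4HB, which encodes the founding protein disulfide isomerase, was lowest, at 414 in the IP and 274 in the input (log2 0.60). The DNAJ co-chaperones were lower, with a median of 0.90 over 16 members. They ranged from DNAJC2, which works at the ribosome, at 30.9 in the IP and 4.81 in the input (log2 2.68), to DNAJA1, a cytosolic partner of HSP70, at 42.1 in the IP and 35.7 in the input (log2 0.24). The 3 listed subunits of the CCT chaperonin, which folds actin and tubulin, were CCT5 at 1.66, CCT3 at 1.28 and CCT8 at 0.18 on the log2 scale.

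A set of acidic nuclear proteins that escort histones or shuttle through the nucleolus had the highest class median after the HSP90 genes. Its members, like those of the other classes, were chosen with earlier results of these data known, so its rank is only a description. Of 12 members, 6 were in the highest decile of the ratio and 6 in that of input level, and the median log2 ratio was 1.92. ANP32B, a histone chaperone, had 568 in the IP and 84.0 in the input, a log2 ratio of 2.76. NCL, the nucleolar protein nucleolin, had 407 in the IP and 72.0 in the input, a log2 ratio of 2.50. SUPT16H, a subunit of the histone chaperone FACT, was near it at 388 in the IP and 69.6 in the input, a log2 ratio of 2.48. The IP level of each was thus more than 5 times the input level. NASP, a chaperone of histones H3 and H4, and ANP32E, a chaperone of the variant H2A.Z, were the exceptions, at log2 ratios of 0.56 and 0.53. All 12 were also listed in the knockout table, where 57.1% of the SiHa list was found.

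The prothymosin alpha gene PTMA, a member of the same set, has many processed copies in the genome, and MIR1244-2 belongs to this family by position. PTMA (chr2:231708525-231713551) had a level of 762 in the IP and 188 in the input, a log2 ratio of 2.02. The pseudogenes PTMAP2, PTMAP5 and PTMAP4 had log2 ratios of 1.97, 2.24 and 2.64 at IP levels of 21.2, 5.63 and 22.6 and input levels of 5.42, 1.19 and 3.62. MIR1244-2 (chr5:118974586-118974670) lies within PTMAP2 and DTWD2 and had an IP level of 49.6 against an input level of 4.57, a log2 ratio of 3.44. RefSeq places further copies of this hairpin within PTMA, PTMAP4 and PTMAP9. Reads from messages of PTMA or of its copies may not be told apart from reads of the 85-base microRNA gene, so its ratio is uncertain. The mature microRNA sequences are shown because the family shares the first of them, with the seed, bases 2 to 8, in capitals and in RefSeq's RNA letters.
hsa-miR-1244: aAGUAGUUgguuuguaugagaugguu
hsa-miR-4767: cGCGGGCGcuccuggccgccgcc
The gene of the second, MIR4767, lies on the X chromosome within STS and PUDP, and had 17.8 in the IP and 13.3 in the input, a log2 ratio of 0.43. The third listed microRNA gene, MIR1206, had 4.46 in the IP and 1.46 in the input, a log2 ratio of 1.61. The library kit was one for messenger RNA, and none of these values measures the mature microRNA.

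Chromatin regulators were a large class above the median. Of 66 listed CHD, SMARC, KMT, KDM, ARID, SETD, BRD, BAZ and related genes, 53 had log2 ratios above the overall median, and the class median was 1.52. In the highest decile were 9 (13.6%), against 10% of all listed genes. With a pseudocount of 1 the share was 18.2%, and among the 50 members with an input level of at least 10 it was 16%. Within 5 bins of input level it was 15.2%, and with an adjusted p of at most 0.05 it was 9.4%. The class lay mostly above the median, and its share at the extreme varied with the setting. ARID4B, a subunit of a histone deacetylase complex, had 53.6 in the IP and 9.61 in the input, a log2 ratio of 2.48. BAZ1B, a subunit of the WICH remodelling complex, followed at 225 in the IP and 41.5 in the input (2.44), and BRD7, a subunit of the PBAF remodeller, at 32.8 in the IP and 6.43 in the input (2.35). The lysine methyltransferase gene SETD7 (0.19) and SMARCD1, a subunit of BAF complexes, at 27.6 in the IP and 26.6 in the input (0.05), were the 2 members in the lowest decile. Of the 66 genes, 57 (86.4%) were also listed in the knockout table, against 57.1% of the SiHa list. Among words of the gene descriptions carried by at least 15 listed genes, bromodomain had the highest median log2 ratio, 1.70 over 16 genes, followed by chromatin at 1.64.

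Zinc finger genes, most of which encode sequence-specific repressors, were the largest family by symbol, with 130 listed members. Of these 27 (20.8%) were in the highest decile of the ratio and 49 (37.7%) in the lowest decile of input level. Their median IP level was 11.7 and their median input level 4.34, and their median log2 ratio 1.32. When the highest decile was taken within 5 bins of input level, 20 members (15.4%) were in it. With a pseudocount of 1 the share in the highest decile was 13.1%, and among the 20 members with an input level of at least 10 it was 10%. The authors' adjusted p was above 0.05 for 35 of them, in the authors' deposited table, against 19.1% of all listed genes.

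The zinc finger genes of chromosome 19, which carries large clusters of KRAB zinc finger genes, were further towards the high end than the others. The 58 members there had a median log2 ratio of 1.63, and the 72 elsewhere 1.13. The median input level was 2.99 on chromosome 19 and 5.98 elsewhere. In the lowest input decile were 32 (55.2%) of those on chromosome 19 and 17 (23.6%) of those elsewhere. All listed genes of that input decile had a lowest log2 ratio of 0.83, a median of 1.49 and 20.5% in the highest decile of the ratio. On chromosome 19, 25.9% of the zinc finger genes were in that ratio decile. Within bins of input level, 20.7% of those on chromosome 19 and 11.1% of those elsewhere were in the highest decile. Input levels still differ within a bin, so the position of these genes was not separated from the higher ratio needed for listing at low input. ZNF441 led with a level of 13.4 in the IP and 1.16 in the input, a log2 ratio of 3.53, and ZNF823 followed at 17.7 in the IP and 1.93 in the input (3.20). Their input levels were among the lowest in the list, and the ratios rest on those small values. The rest of chromosome 19 did not share this position: 153 other listed genes matched there had a median of 0.83, with 2 (1.31%) in the highest decile and 29 in the lowest. Their median input level was higher, 18.5. Off chromosome 19 the leaders were ZNF721, at 24.9 in the IP and 4.05 in the input (2.62), and ZNF669 (2.51). The lowest of all were ZNF362 (0.22) and ZNF460 (0.14). The 13 ZBTB genes, which pair zinc fingers with a BTB domain, had a median of 1.12.

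**Figure D2:**
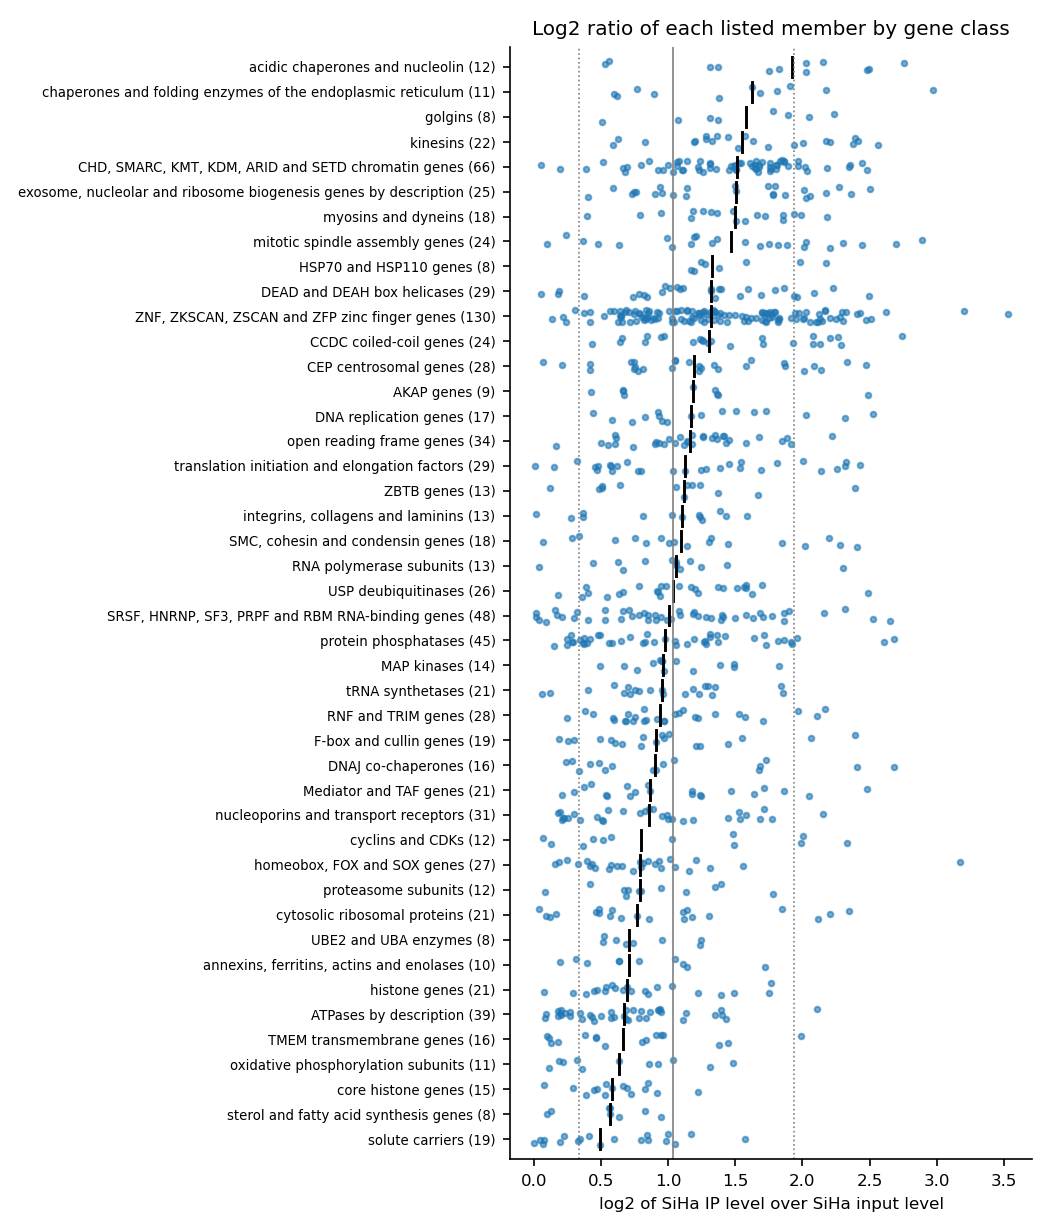
Log2 ratio of IP over input for each listed member (points) of most of the larger gene classes, with the number of members in parentheses, sorted by class median (black bars). The solid line is the median of all listed genes, 1.04, and the dotted lines bound the lowest and highest deciles at 0.33 and 1.94. Acidic chaperones and nucleolin are at the top and solute carriers at the bottom, and nearly every class spans both sides of the overall median.

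Motor protein genes lay on the high side. Kinesins move cargo along microtubules and build the mitotic spindle. Of 22 listed kinesins, 7 (31.8%) were in the highest decile, none in the lowest, and 19 were above the overall median, with a class median of 1.55. KIF5B, the ubiquitous transport kinesin, had an IP level of 84.0 against an input level of 14.2, a log2 ratio of 2.56. KIF18A, which damps chromosome movement, had 34.7 in the IP and 6.52 in the input (2.41), and KIF4A, a chromokinesin, 135 in the IP and 25.8 in the input (2.39). The transport and the mitotic members thus stood side by side at the top. KIF7, a regulator of Hedgehog signalling in cilia (0.63), and KIF1C (0.59) were lowest. The 18 myosin and dynein genes had a median of 1.50, led by MYO5C with 46.1 in the IP and 10.1 in the input (2.19), and ending with the dynein light intermediate chain gene DYNC1LI2 (0.40).

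Genes of the spindle, a class added after values were seen, had a median of 1.47 over 24 members, with 7 in the highest decile of the ratio and 12 in that of input level. TPX2, which activates Aurora A kinase on spindle microtubules, had 781 in the IP and 120 in the input, a log2 ratio of 2.70. PRC1, which bundles microtubules at the midzone, had 377 in the IP and 69.4 in the input (2.44). ASPM, a protein of the spindle pole, did not share their position, at 64.1 in the IP and 54.2 in the input (0.24). CKAP4 (0.10) was caught by its symbol and is known as a membrane protein of the endoplasmic reticulum.

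Centrosome genes held members at both ends. The 28 CEP and related genes had a median of 1.19, with 5 in the highest decile and 2 in the lowest. CEP55, which acts in abscission at the end of cell division, had 159 in the IP and 28.6 in the input (2.47), and CEP152, a scaffold of centriole duplication, 31.5 in the IP and 6.28 in the input (2.33). CEP72 (0.21) and CEP170B (0.07) were at the bottom. CCDC genes share only a predicted coiled coil, and 7 of 24 (29.2%) were in the highest decile and none in the lowest. Their median input level was 5.66, and no listed gene with an input level up to 6.87 was in the lowest ratio decile. The absence from the lowest decile is thus largely set by input level. CCDC97 led the CCDC genes at 107 in the IP and 15.9 in the input (2.74). Golgins, long coiled-coil tethers of the Golgi, had a median of 1.58 over 8 members, led by GOLGA5 (2.24) and GOLGA1 (2.05).

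Genes of chromosome structure and replication held members at both ends. Among 18 cohesin, condensin and related SMC genes, 4 were in the highest decile and 2 in the lowest, and the median was 1.09. PDS5B, a regulator of cohesin, had 62.3 in the IP and 11.7 in the input (2.41), and SMC1A, a core cohesin subunit, 277 in the IP and 60.5 in the input (2.19). The condensin subunit gene SMC4 had nearly equal levels, 71.6 in the IP and 68.3 in the input (0.07). Condensin genes were thus found at opposite ends: NCAPH, of condensin I, stood at 2.28 and NCAPG2, of condensin II, at 0.29. The 17 DNA replication genes had a median of 1.17, from MCM10, which helps to fire origins, at 36.3 in the IP and 6.3 in the input (2.53), to RFC5, a clamp loader subunit, at 0.44. Of 12 cyclins and cyclin-dependent kinases, CDK12, the elongation kinase, led at 104 in the IP and 20.6 in the input (2.33), followed by the mitotic cyclin CCNB1 at 206 in the IP and 51.4 in the input (2.00). The S-phase and mitotic cyclin CCNA2 was at 0.13.

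RNA helicases of the DEAD and DEAH families unwind RNA in splicing, ribosome assembly and translation. Their 29 listed genes had a median of 1.32 with 4 in the highest decile. DDX10, a nucleolar helicase, had a level of 22.2 in the IP and 3.93 in the input (2.50), and DHX15, which disassembles spliceosomes, 44.7 in the IP and 43.0 in the input (0.05). Nucleolar and ribosome biogenesis genes, a class added after values were seen, had 7 of 25 members in the highest decile, none in the lowest and a median of 1.50. Their median input level was 8.17, in the fourth input decile, where only 1.65% of all listed genes were in the lowest ratio decile. BMS1, a GTPase of small-subunit assembly, led at 32.3 in the IP and 5.70 in the input (2.50), and IMP3 (0.59) and GNL3 (0.40) were lowest.

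Splicing and other RNA-binding genes (SRSF, HNRNP, SF3, PRPF and RBM) had a median of 1.01 over 48 members, almost that of all listed genes, yet spread over the whole range. The SF3B subunit gene SF3B6 had 117 in the IP and 18.6 in the input (2.65), the highest ratio of this class. HNRNPAB, an hnRNP protein, had 55.8 in the IP and 55.2 in the input (0.01), and RBM12 was at 0.01 as well. Of the 48 genes, 4 were in the highest decile and 9 (18.8%) in the lowest. Their median input level was 18.8, in the eighth input decile, where 18.4% of all listed genes were in the lowest ratio decile.

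Translation factor genes were spread in the same way. Of 29, 6 were in the highest decile and 3 in the lowest, with a median of 1.12. EIF2S2, the beta subunit of the factor that brings the initiator tRNA, had 97.7 in the IP and 18.1 in the input (2.43). EIF3A, the scaffold subunit of eIF3, had 243 in the IP and 48.6 in the input (2.32), while EIF3I, another eIF3 subunit, had 41.7 in the IP and 41.4 in the input (0.01). Aminoacyl-tRNA synthetase genes had no member in the highest decile, with a median of 0.96 over 21 members, the scaffold gene AIMP1 included. They ranged from SARS, at 57.8 in the IP and 16.0 in the input (1.86), to VARS, at 21.4 in the IP and 20.5 in the input (0.06).

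Cytosolic ribosomal protein genes had a median of 0.77, below that of the list, and 15 of 21 were in the highest decile of input level. Members lay at both ends, with 3 in the highest decile of the ratio and 4 in the lowest. RPL4 had an IP level of 399 against an input level of 78.2 (2.35), RPL6 210 in the IP and 45.6 in the input (2.20), and RPL5 369 in the IP and 85.3 in the input (2.11). RPL7A and RPL13A, also of the large subunit, had 141 in the IP and 133 in the input (0.09), and 63.7 in the IP and 62.1 in the input (0.04). Proteins of one particle were thus encoded by transcripts whose ratios differed by more than 2 log2 units. The 7 mitochondrial ribosomal protein genes had a median of 0.82.

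Histone genes divided by kind, in classes added after values were seen. The 6 linker histone H1 genes had a median of 1.44, led by HIST1H1C with 1054 in the IP and 309 in the input (1.77). HIST1H1E followed at 694 in the IP and 207 in the input (1.75) and H1F0, the histone H1 of resting cells, at 369 in the IP and 132 in the input (1.49). H1FX was lowest at 139 in the IP and 91.1 in the input (0.61). The 15 core histone genes had a median of 0.58, and the highest of them, HIST1H2BM, stood at 1.23 with 334 in the IP and 143 in the input. HIST1H2BK, at 416 in the IP and 340 in the input (0.29), and HIST1H2BF, at 55.5 in the IP and 52.6 in the input (0.08), were in the lowest decile. No histone gene was in the highest decile of the ratio, and 17 of 21 were in the highest decile of input level. Messages of most histone genes lack a poly(A) tail in dividing cells. Reads of near-identical histone genes may be split between copies.

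At the low end stood genes of membrane transport. Of 19 solute carrier genes, none was in the highest decile of the ratio and 7 (36.8%) were in the lowest, and the median log2 ratio was 0.49. Their median input level was 23.7, in the eighth input decile, where 18.4% of all listed genes were in the lowest ratio decile. SLC16A1, a lactate transporter, had a level of 64.9 in the IP and 62.8 in the input (0.05). The sodium-coupled amino acid transporter gene SLC38A2 had 356 in the IP and 171 in the input (1.05), the third highest value. The highest was SLC24A1, at 4.12 in the IP and 1.39 in the input (1.57), so that levels near the lower limit of the list gave the largest ratio of the family. Of the 19 genes, 6 (31.6%) were also listed in the knockout table, against 57.1% of the SiHa list. The 16 TMEM genes, named only for a predicted membrane span, had a median of 0.67 with 4 in the lowest decile. The median input level of the TMEM genes, 23.1, was in the same input decile as that of the solute carriers. Among 7 RAB GTPases of vesicle traffic, RAB8A led at 57.3 in the IP and 23.2 in the input (1.30), and RAB7A of late endosomes, at 46.2 in the IP and 43.6 in the input (0.08), and RAB14 (0.05) were lowest, with a median of 0.34. Ion and lipid pumps of the ATP symbol series were alike: genes with that symbol root had a median of 0.50 over 21 members.

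Metabolic enzymes formed the other low class. Of 60 genes described as dehydrogenase, reductase or synthase, 20 (33.3%) were in the lowest decile and 1 in the highest, with a median of 0.49. That 1 gene was DKC1, at 37.1 in the IP and 8.22 in the input (2.17). It and PUS7 (1.94) encode pseudouridine synthases and TGS1 (1.78) the trimethylguanosine synthase of small RNA caps, so the 3 highest members modify RNA and are not enzymes of small-molecule metabolism. DLD, a subunit shared by mitochondrial dehydrogenase complexes, had 17.2 in the IP and 17.1 in the input (0.01), and MTRR, which restores methionine synthase, was at 0.03. The 11 oxidative phosphorylation subunits had a median of 0.64 with 4 in the lowest decile. Their median input level was 13.4, in the sixth input decile, where 15.3% of all listed genes were in the lowest ratio decile. UQCRB led them (1.48), and SDHA, the flavoprotein of complex II, had 103 in the IP and 90.0 in the input (0.19). Among words of the descriptions, dehydrogenase had the lowest median, 0.44 over 24 genes.

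Sterol and fatty acid synthesis genes, a class added after values were seen, were high in input and low in ratio. Of 8 listed members, 6 were in the highest decile of input level and none in that of the ratio, and the median was 0.57. ACLY, which makes cytosolic acetyl-CoA from citrate, had 91.8 in the IP and 51.8 in the input (0.83). HMGCS1, a synthase early in the sterol pathway, had 108 in the IP and 69.4 in the input (0.64). Only 1 of the 8 was also listed in the knockout table, against 57.1% of the SiHa list and 16.2% of its lowest ratio decile.

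Nuclear transport genes, 31 nucleoporins and transport receptors, had 7 members (22.6%) in the lowest decile and 1 in the highest, with a median of 0.86. Their median input level was 19.2, in the eighth input decile, where 18.4% of all listed genes were in the lowest ratio decile. IPO7, an importin that carries ribosomal proteins and histones, had 114 in the IP and 25.7 in the input (2.15), and NUP188, of the inner ring of the pore, 51.5 in the IP and 45.5 in the input (0.18). The 12 proteasome subunits had a median of 0.79 and none in the highest decile. Homeobox, FOX and SOX factors, pooled as 1 class, had a median of 0.79 over 27 genes, with SIX2 alone in the highest decile, and HOXA7 next at 1.56. Words of the descriptions gave other sets, and homeobox took in genes outside this class. The 17 listed genes with the word homeobox had a median of 1.08 and 2 in the highest decile, and the 15 with forkhead 0.80 and none. Of the 27 genes of the pooled class, 15 had an adjusted p above 0.05 in the authors' deposited table, against 698 (19.1%) of all 3648 listed genes. Genes described as kinase (197) and receptor (123) were near the overall median, at 0.96 and 0.93, and USP deubiquitinases (26) at 1.04.

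The input level itself separated the classes. Among the 10 highest input levels were SCD, the stearoyl-CoA desaturase, with an IP level of 1250 against an input level of 844 (log2 ratio 0.57), and ACTB, cytoplasmic actin, with 1076 in the IP and 818 in the input (0.40). FTH1, the ferritin heavy chain, had 1206 in the IP and 779 in the input (0.63). PKM and ENO1, enzymes of glycolysis, had 1006 in the IP and 539 in the input (0.90), and 481 in the IP and 386 in the input (0.32). EEF2, ACTG1 and KRT17 lay between 0.58 and 0.86. The other 2 had larger ratios, HSPA8 at 1.98 and APP, the amyloid precursor protein, at 1.50 with 1183 in the IP and 418 in the input. Ranked by IP level instead, HSP90B1, HSP90AA1 and HSPA8 were followed by BASP1, a membrane-bound protein of growth cones, at 1488 in the IP and 234 in the input (2.67). APLP2, a paralog of APP, was also in this group at 1088 in the IP and 253 in the input (2.11).

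The 5 lowest input levels belonged to RPL5P34, IQGAP2, MSNP1, NR2F1 and SERBP1P5, at 1.07 to 1.13. Their IP levels were 3.79 to 9.0, with log2 ratios of 1.79 to 3.08. Pseudogenes made up 3 of these 5. Within the lowest decile of input, up to 3.46, the lowest log2 ratio was 0.83 and the median 1.49. In the highest decile, from 40.4, they were 0.00 and 0.82. The lowest log2 ratio was still 0.29 in the fourth decile and 0.17 in the fifth, so that genes with a ratio near 1 appear in the list only at higher input levels. From the second to the tenth decile the medians lay between 1.12 and 0.82. The median of the lowest input quartile exceeded that of the highest by 0.40. This difference was 0.20 with a pseudocount of 1, 0.073 among genes with an input level of at least 10, and -0.37 with quartiles of IP level.

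**Figure D3:**
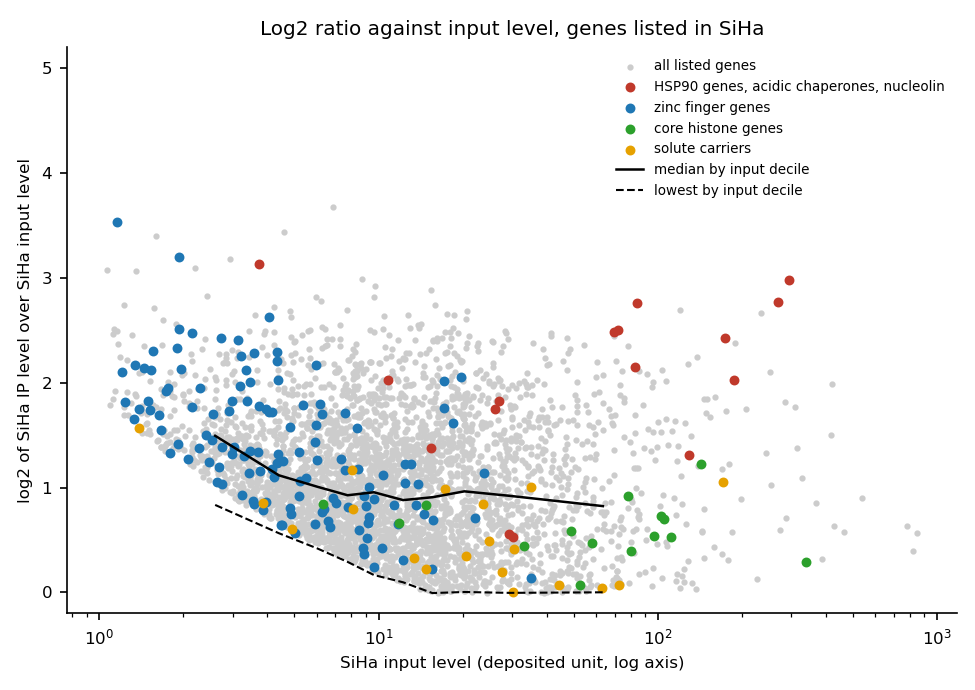
Log2 ratio of IP over input against SiHa input level (log axis, deposited unit) for all 3648 listed genes in grey, with 4 groups of genes in colour. The solid line joins the medians and the dashed line the minima of the 10 input deciles. The minima lie between 0.83 and -0.01, and zinc finger genes occupy the left and HSP90, acidic chaperone and core histone genes mostly the right.

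Both ends of the ratio were therefore filled unequally along the input level. In the lowest input decile 20.5% of genes were in the highest decile of the ratio and none in the lowest. In the highest input decile 10.7% were in the highest decile of the ratio and 23.0% in the lowest. Across all listed genes the Spearman correlation of log2 ratio with input level was -0.25, with IP level 0.16, and between both levels 0.89. These values are descriptions across 3648 genes, which share the same 2 libraries, and the input level is the denominator of the ratio. An adjusted p above 0.05 was given to 698 listed genes (19.1%) by the authors' deposited table. Of these, 141 were in the lowest decile of the ratio and 1 was in the highest, and they made up 49.0% of the lowest input decile and 0 genes of the highest.

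**Figure D4:**
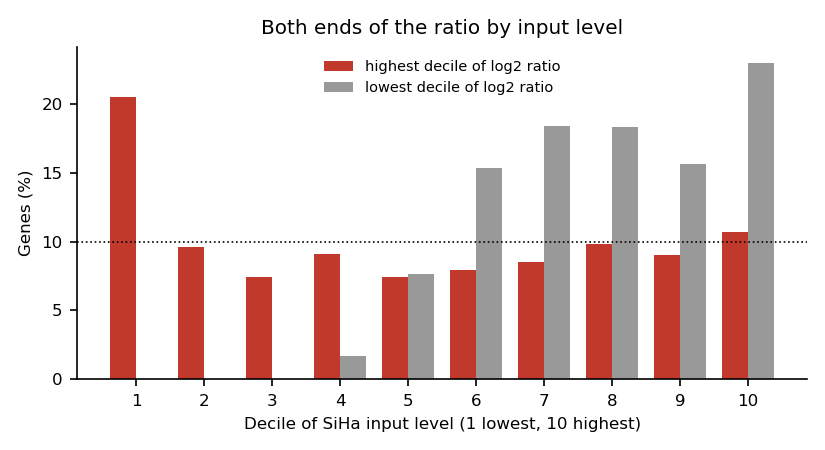
Share of genes in the highest (red) and the lowest (grey) decile of the log2 ratio, for each decile of SiHa input level from lowest to highest. The dotted line marks 10%. The red bars are tallest at the lowest input, 20.5%, and the grey bars at the highest input, 23.0%, with none in the lowest 3 deciles.

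Protein-coding genes made up 3532 of the 3648 genes, with a median log2 ratio of 1.03. The 78 pseudogenes had a median of 1.53, with 20 (25.6%) in the highest decile of the ratio and 35 in the lowest decile of input level. Within bins of input level 17 were in the highest decile. Among the leaders, HSP90AA2P, a processed copy of HSP90AA1, had 32.7 in the IP and 3.74 in the input (3.13). NPM1P27, a copy of the nucleophosmin gene NPM1, had 42.1 in the IP and 5.98 in the input (2.81), and RPL5P34, a copy of RPL5, 9.0 in the IP and 1.07 in the input (3.08). At the other end stood RPL13AP5, at 125 in the IP and 116 in the input (0.11).

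Pseudogenes were also set beside the genes they were copied from. Pairs were found by symbol, a listed protein-coding gene's symbol followed by P with or without a number, so that copies named otherwise, such as HSP90AA2P, were not paired. This gave 48 pseudogenes of 36 listed genes. The pseudogene had the higher log2 ratio in 40 pairs, by a median of 0.32, and the lower input level in 45. The lowest log2 ratio in the list was 0.83 in the lowest input decile and 0.00 in the highest. Copies with low input are thus listed only at higher ratios, and the pairs were not set apart from this limit. RPL13AP5 stood beside RPL13A (0.04) at the low end, and RPL5P34 and NPM1P27 beside RPL5 (2.11) and NPM1 (2.15) at the high end. Reads may be split between a gene and its near-identical copies, and how the authors assigned them is not given in the sources used here, so these pseudogene levels are uncertain.

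Long non-coding genes were few. The 28 of them had a median of 0.93, with 1 in the highest decile. LINC00106 had 61.0 in the IP and 14.7 in the input (2.05), and LINC00662 14.5 in the IP and 13.4 in the input (0.11). Of the 9 antisense genes GSEC led, at 7.28 in the IP and 2.38 in the input (1.61), and their median was 0.66. Whether reads were counted by strand is not given in the sources used here, so reads of antisense genes may come from the opposite strand. RNU1-106P, a copy of the U1 small nuclear RNA gene, had 38.1 in the IP and 15.5 in the input (1.29). The 3 listed copies of the 5S ribosomal RNA gene were RNA5SP174 (2.07), RNA5SP175 (1.87) and RNA5SP283 (1.06). No small nucleolar RNA gene, no SNHG gene, neither GAS5 nor ZFAS1, and no mitochondrially encoded gene was listed.

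Gene length and promoter base composition, which the ratio does not use, differed along it. RefSeq matched 3486 of the 3648 genes by current symbol, and 2888 of the protein-coding ones had a promoter sequence there. Deciles of the ratio and bins of input level were formed anew over the 3413 matched protein-coding genes for these values. The median length of protein-coding genes was 37.2 kb in the lowest decile of the ratio, 71.9 kb in the seventh and 59.2 kb in the highest. The median promoter G+C, from 250 bases before to 50 bases after the start, was 67.3% in the lowest decile and 63.2% in the highest. Within bins of input level, the fifth of genes with the highest ratios was longer than the fifth with the lowest in 4 of 5 bins, for example 48.2 kb against 25.6 kb at the highest input. At the lowest input the order was the other way, 60.6 kb against 68.1 kb. Promoter G+C was lower at high ratios in all 5 bins, with 62.8% against 67.3% at the lowest input and 65.2% against 68.5% at the highest. Gene length includes introns and is not the length of the transcript. The Spearman correlations with log2 ratio were weak, 0.16 for length and -0.10 for promoter G+C.

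**Figure D5:**
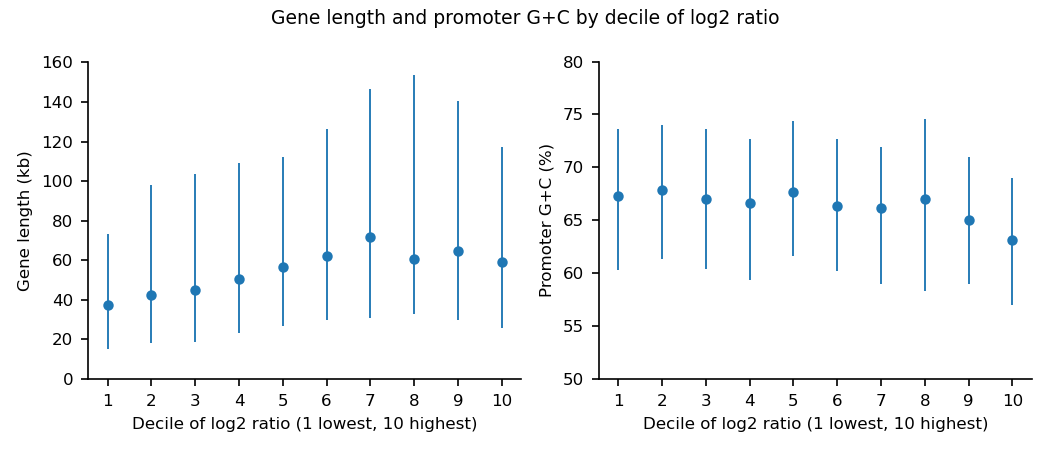
Gene length in kb (left) and promoter G+C in percent (right) of listed protein-coding genes by decile of the log2 ratio, formed over the 3413 protein-coding genes matched to RefSeq, with points at the median and lines over the quartiles. The promoter axis runs from 50% to 80%. Median length is 59.2 kb in the highest and 37.2 kb in the lowest decile, and median G+C 63.2% in the highest and 67.3% in the lowest, with wide overlap between deciles.

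The share of genes also listed in the knockout table differed along the ratio. Of the lowest decile of the SiHa ratio 16.2% were listed in the knockout, and of the highest 91.2%, with an increase at every step between them. The knockout table had its own thresholds and its own libraries, and a gene that is not listed there has no known level. Among the classes, the acidic chaperones (12 of 12), chromatin regulators (57 of 66) and HSP90 genes (4 of 4, the pseudogene HSP90AA2P included) were mostly listed in both. Sterol and fatty acid synthesis genes (1 of 8), solute carriers (6 of 19) and homeobox, FOX and SOX factors (4 of 27) mostly were not. These class counts were not set apart from the increase along the ratio. Of the zinc finger genes, 45 of 130 (34.6%) were listed in both, against 57.1% of the whole list. Their median IP level, 11.7, lay below that of all genes listed in SiHa, 21.2.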

How the data were processed

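Per the labels' protocols, a KAPA stranded mRNA-seq kit was used for the RIP-seq libraries of SiHa cells. The submitters' processing notes name FastQC 0.11.7 and the builds GRCh38 and hg38. How reads were aligned and counted, whether by strand, and by which test genes were called is not given in the sources used here. Per the file headers, the authors deposited for each gene 2 levels, a log2 fold change, a p-value and an adjusted p-value. The deposited levels were not whole numbers and were handled as a signal whose unit is unknown, so depth per library is unknown and no counting interval is given.

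The log2 ratio of IP level over input level was computed without a pseudocount (Python 3.11.15, pandas 2.3.3, SciPy 1.17.1). Deciles of the ratio and of the input level were formed over all 3648 listed genes. Genes were sorted into 69 classes by symbol, biotype or words of the description, 10 of them added after values were seen, and some patterns were then corrected because they caught unrelated symbols. Members and lists were chosen with earlier results of these data known. Classes were described by counts and medians beside those of all listed genes, with no test and 1 library per group. Named genes were the 10 highest and 10 lowest ratios among genes at or above the median of the higher level, the 10 highest input and IP levels, the 5 lowest input levels, and the 3 highest and 2 lowest ratios of each class, or all members of a class of under 6. Pseudogene, chromosome 19, microRNA and PTMA family genes were added to these after their values were seen. Locations, lengths, promoters and microRNA sequences came from RefSeq (GRCh38.p14), which matched 3486 genes by current symbol. Older symbols were not used, since some name another or a merged gene. For gene length and promoters, deciles and input bins were formed anew over the 3413 matched protein-coding genes. The counting steps were tested on simulated data.

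Alternatives were a pseudocount of 1, the deposited log2 fold change, an adjusted p of at most 0.05, an input level of at least 1, deciles within 5 bins of input level, quartiles of IP level, and leaving out pseudogenes. An input level of at least 10 was added after seeing the data. A planned comparison of protein composition was not run. A few class members that the rule for named genes selects are not reported here.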

Additional observations from a re-analysis of the deposited data

How the results depend on the processing

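The count of genes with a ratio of at least 4, 312 as reported, was 1917 with the deposited log2 fold change, whose constant of 1.01 adds to every ratio, 205 with a pseudocount of 1 and 149 with an input level of at least 10, which keeps fewer genes. The median log2 ratio of the lowest input quartile exceeded that of the highest by 0.40. This gap was 0.20 with the pseudocount, 0.57 with an adjusted p of at most 0.05, 0.073 with an input level of at least 10, and -0.37 with quartiles of IP level, where the order turned round. IP level is the numerator of the ratio and input level its denominator. The share of zinc finger genes in the highest decile, 20.8% as reported, was 13.1% with the pseudocount and 10% among the 20 members with an input level of at least 10. That share became 0 for TMEM genes with the adjusted p limit and with an input level of at least 10, and under this input limit also for USP, homeobox, open reading frame, dehydrogenase and RNA polymerase genes. It was 0 for RNA polymerase genes with the pseudocount and for genes described as mitochondrial with the adjusted p limit. Most of these classes had 1 gene in the decile. The cause of these shifts was not tested. In all, 262 of 280 values under alternatives stayed within the margin set for them. Of these, 47 belong to an input level of at least 1, which removed no gene and so could change nothing. For class shares the margin was the 95% binomial interval of the share as reported. That interval treats member genes as independent, although they share the same 2 libraries. The margin was wide for small classes. The share of cyclins and CDKs, 25% as reported and 9.09% with the adjusted p limit, was counted as within it. The count of 262 therefore says little about small classes. No paired analysis was possible because each group is 1 library and the result comes from no test. Depth is unknown, so what it limits could not be measured.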
